A study of Mus musculus with 14 samples.

Results

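The transcription factors and coactivators that build and maintain adipocytes were examined as a set of 9 genes, found by symbol among 23441 genes of the deposited count matrix, from 55401 genes counted in all. They were *Pparg* and *Cebpa*, the core factors of fat cell differentiation, *Cebpb* and *Cebpd*, which act early in it, *Klf15* and *Klf5*, 2 Krüppel-like factors, *Zfp423*, a factor of preadipocyte commitment, and *Ppargc1a* and *Ppargc1b*, which encode the coactivators PGC-1α and PGC-1β. All 9 passed the filter on low counts, with 17494 genes tested.

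RNA came from the marrow plugs of distal tibiae, a site rich in constitutive bone marrow adipocytes (BMAds), of male mice aged 24 weeks of mixed SJL and C57BL/6J descent. Each of the 14 samples pooled the plugs of 2 mice. BMAd-Pnpla2+/+ mice fed ad libitum (AL) gave 4 samples and those on caloric restriction (CR, 30% less food for 6 weeks) gave 4. BMAd-Pnpla2-/- mice, in which Cre had excised floxed *Pnpla2* (adipose triglyceride lipase, the enzyme that starts the breakdown of stored fat), gave 3 samples AL and 3 under CR. Cre in this model is driven from the *Adipoq* locus only after FLPo, made from the *Osterix* locus, has turned its cassette, so it acts in BMAds and also in a small subset of marrow stromal cells, and its insertion lowers adiponectin protein. Controls carried the FLPo and Cre alleles too, per the study's text, and lacked the floxed *Pnpla2* alleles.

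Adipogenesis runs as a cascade. C/EBPβ and C/EBPδ appear first after a hormonal stimulus and switch on PPARγ and C/EBPα, which then hold each other's expression up and activate the genes of lipid storage and hormone secretion. KLF5 acts between the early and the late factors, KLF15 is induced late and is also known for its rise with fasting and glucocorticoids, and ZFP423 marks committed preadipocytes. PGC-1α and PGC-1β bind nuclear receptors, PPARγ among them, and drive mitochondrial and oxidative genes. In marrow, C/EBPα, C/EBPβ and C/EBPδ are also factors of the granulocyte lineage, so their transcripts do not come from adipocytes alone.

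The starts of 3 members that rose with CR in BMAd-Pnpla2+/+ mice are shown, as an example of the sequence in front of such a start. The sequences are RefSeq's for GRCm38.p6, which held a start for 6 of the 9 members, and each line gives the 100 bases before the start in the direction of transcription. The *Pparg* start shown lies 60922 bases downstream of the first RefSeq start, at the first exon of PPARγ2, the adipocyte form. Capitals mark matches on either strand to TTGCNNAA (the C/EBP motif), AGGTCA (bound by nuclear receptors), CACGTG (an E-box), CACCC (bound by KLFs), TATAAA or CCAAT.
*Pparg* (chr6:115421966-115422065, + strand): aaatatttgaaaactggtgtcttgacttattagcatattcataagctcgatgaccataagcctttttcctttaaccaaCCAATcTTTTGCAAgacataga
*Cebpa* (chr7:35119193-35119292, + strand): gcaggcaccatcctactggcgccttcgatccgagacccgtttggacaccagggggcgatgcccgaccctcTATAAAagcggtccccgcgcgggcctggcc
*Klf15* (chr6:90462476-90462575, + strand): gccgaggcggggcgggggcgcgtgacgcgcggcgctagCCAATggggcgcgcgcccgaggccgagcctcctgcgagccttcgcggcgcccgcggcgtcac
The *Pparg* window held a C/EBP match, whose first base lies at -16 from the start, next to a CCAAT match at -22. Among 32851 RefSeq promoters, 3.43% had the C/EBP letters in the same 100 bases and 18.9% had CCAAT. *Cebpa* had a TATAAA match at -30, found in 5.56% of windows, and *Klf15* a CCAAT match at -62. In the 300 bases from 250 before to 50 after the start, *Klf15* held CACGTG at 3 places, against 7.15% of promoters with at least 1. A match of letters shows neither binding nor use of the start, and gene counts do not tell PPARγ1 from PPARγ2 transcripts.

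Depth was similar across samples, with 18898324 to 21665553 unstranded gene counts. The BMAd-Pnpla2-/- CR libraries stood apart in strand. Between 50.1% and 50.5% of their strand-assigned gene reads lay on the first strand, against 4.30% to 4.62% in the other 11, so that these libraries were not strand-specific, and library type cannot be told apart from that group. Counts without regard to strand were therefore used for all samples. *Pnpla2* itself averaged 219 ± 58.4 CPM (SD, n = 4; CPM is a gene's count scaled by the TMM library size of its sample) in BMAd-Pnpla2+/+ AL, 840 ± 241 (n = 4) in BMAd-Pnpla2+/+ CR, 148 ± 21.7 (n = 3) in BMAd-Pnpla2-/- AL and 224 ± 45.5 (n = 3) in BMAd-Pnpla2-/- CR samples. It was lower in BMAd-Pnpla2-/- mice under CR (log2 fold change -1.91, SE 0.26, edgeR padj = 0.0387), but the AL difference did not pass (-0.57, SE 0.25, padj = 1). The source of the *Pnpla2* counts left in BMAd-Pnpla2-/- samples was not tested.

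In BMAd-Pnpla2+/+ mice, CR raised 6 of the 9 members and lowered 1. Those higher were *Klf15*, *Zfp423*, *Cebpa*, *Pparg*, *Ppargc1a* and *Ppargc1b*, the lower was *Cebpd*, and *Cebpb* and *Klf5* did not pass. In edgeR's quasi-likelihood test at an adjusted p (padj) under 0.05, 15% of all tested genes were higher and 10.9% lower in this comparison. Of the members, 5 also had a log2 fold change over 1, against 7.26% of all genes. The median log2 fold change was 1.10 over the members and 0.0029 over all genes tested. In BMAd-Pnpla2-/- mice only *Klf15* passed as higher and *Cebpd* as lower, where 6.01% of genes were higher and 5.57% lower, and the members' median was 0.52 against 0.05 for all genes. With *Klf15* the single member over a log2 fold change of 1 and past the test, the background for that criterion was 2.59%. Scaled by total counts instead of TMM, the calls over all genes in BMAd-Pnpla2-/- mice split into 1386 higher and 682 lower rather than 1051 and 974, and *Klf15* and *Cebpd* were still the members called.

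**Figure D1:**
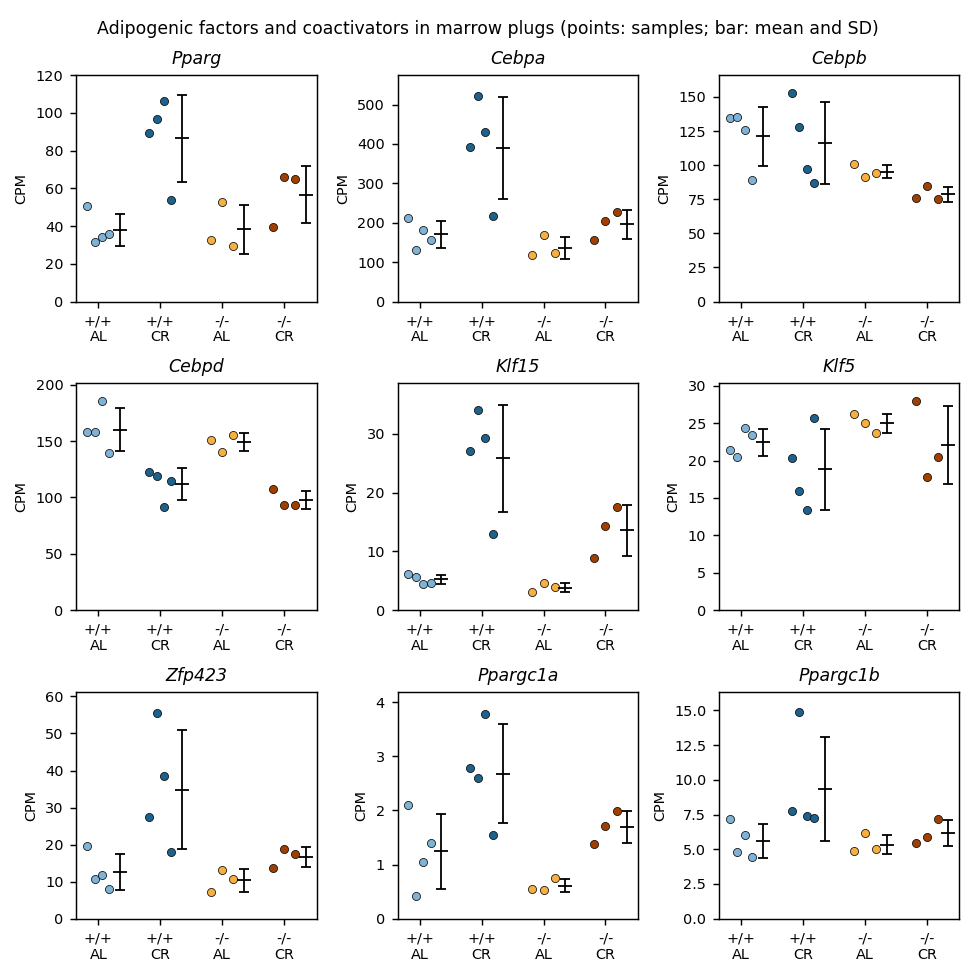
CPM (y axes, linear, from 0) of the 9 members in each sample of the 4 groups (x axes; +/+ and -/- are BMAd-Pnpla2+/+ and BMAd-Pnpla2-/-), with the group mean and SD at the right of each set of points. *Klf15* is higher in every CR sample than in any AL sample of the same genotype, and *Cebpd* is lower.

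*Pparg* encodes the nuclear receptor without which adipocytes do not form. It is at chr6:115360951-115490399 on the + strand. Its 4 BMAd-Pnpla2+/+ AL samples had 50.7, 31.4, 34.0 and 36.1 CPM, and the 4 CR samples 89.3, 96.9, 106 and 53.8 CPM. All CR samples were above all AL samples, although CR replicate 4 exceeded AL replicate 1 only slightly. The log2 fold change was 1.18 (SE 0.25, edgeR padj = 0.00745). The AL samples of BMAd-Pnpla2-/- mice had 32.5, 53.0 and 29.4 CPM and the CR samples 39.3, 65.9 and 64.9 CPM. The latter groups overlapped, and the log2 fold change of 0.57 (SE 0.29, padj = 0.217) did not pass the test.

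*Cebpa*, the partner of *Pparg* in the mature adipocyte and a factor of early granulocyte progenitors, is a gene of 1 exon at chr7:35119293-35121928 on the + strand. BMAd-Pnpla2+/+ AL samples had 213, 131, 181 and 157 CPM and CR samples 391, 523, 429 and 216 CPM. The groups did not overlap, again with CR replicate 4 beside the highest AL sample. *Cebpa* rose by a log2 fold change of 1.19 (SE 0.24, padj = 0.00556), close to that of *Pparg*. Its levels in BMAd-Pnpla2-/- mice were 120, 169 and 122 CPM AL and 156, 204 and 228 CPM under CR. The log2 fold change of 0.52 (SE 0.27, padj = 0.232) did not pass. It was 0.24 on the deposited matrix, where the AL columns of this genotype hold reverse-strand and the CR columns unstranded counts. An antisense gene, Gm45091, shares 51 exon bases with *Cebpa*, and in the 11 strand-specific libraries the unstranded count was 81.2% to 88.9% of the reverse-strand count.

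*Cebpb*, the early factor that also drives granulocyte output in emergency, is at chr2:167688915-167690418 on the + strand. It had 134, 135, 126 and 89.4 CPM in BMAd-Pnpla2+/+ AL and 153, 128, 97.4 and 87.1 CPM in BMAd-Pnpla2+/+ CR samples. The CR samples spanned the AL samples on both sides, and the log2 fold change was -0.06 (SE 0.16, padj = 0.812). BMAd-Pnpla2-/- samples had 100, 91.0 and 94.3 CPM AL and 75.6, 84.7 and 75.6 CPM under CR. The CR samples lay below the AL samples, but the log2 fold change of -0.28 (SE 0.19, padj = 0.365) did not pass. It was -0.31 (padj = 0.0488) when only these 2 groups were fitted and -0.99 (padj = 0.00231) on the deposited matrix. In that matrix the AL columns of this genotype hold reverse-strand and the CR columns unstranded counts, so the groups were counted differently. *Cebpb* shares 312 exon bases, 20.7% of its length, with *Tmem189* on the other strand. Its unstranded count was 60.5% to 66.4% of the reverse-strand count. Reads that touch both genes go to neither when strand is not used.

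*Cebpd*, the other early factor, fell in both genotypes. At chr16:15887286-15891031 on the + strand, it had 158, 158, 185 and 140 CPM in BMAd-Pnpla2+/+ AL and 123, 119, 91.8 and 114 CPM in BMAd-Pnpla2+/+ CR samples. No CR sample reached an AL sample, and the log2 fold change was -0.52 (SE 0.11, padj = 0.00577). BMAd-Pnpla2-/- samples had 151, 140 and 156 CPM AL and 107, 93.5 and 93.0 CPM under CR, again without overlap, and the log2 fold change was -0.60 (SE 0.12, padj = 0.0121). Without BMAd-Pnpla2-/- CR replicate 3 the latter was -0.57 with padj = 0.0596. It shares 562 exon bases with *Spidr* on the other strand, yet its unstranded counts stayed at 100% to 102% of the reverse-strand counts.

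Most markers of the neutrophil lineage fell, as *Cebpd* did, in BMAd-Pnpla2+/+ mice, but few were called in BMAd-Pnpla2-/- mice. In BMAd-Pnpla2+/+ mice 9 of 12 fell and 0 rose with CR, where 10.9% of all genes were lower and 15% higher. Their summed level went from 27183 to 35356 CPM in AL to 13383 to 24604 CPM in CR samples. *Ly6g*, a surface marker of mature neutrophils, had a log2 fold change of -1.23 and *S100a9*, a calcium-binding protein of their cytoplasm, of -1.07. Of the 12, 1 fell in BMAd-Pnpla2-/- mice, where 5.57% of all genes were lower. The sums there were 29584 to 30478 CPM AL and 18131 to 29253 CPM under CR, which did not overlap either. None of the 12 was at 0 in all samples of a group. Their part in the *Cebpd* result was not tested.

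*Klf15* showed the largest fold change of the 9 members with CR in either genotype. It lies at chr6:90462576-90475238 on the + strand and has 5 merged exons. BMAd-Pnpla2+/+ AL samples had 6.17, 5.62, 4.49 and 4.66 CPM and CR samples 27.0, 34.0, 29.2 and 12.9 CPM. Even the lowest CR sample, replicate 4, was above the highest AL sample, and the fitted rise was 4.93-fold, a log2 fold change of 2.30 (SE 0.28, padj = 0.000634). Its BMAd-Pnpla2-/- samples had 3.03, 4.54 and 3.97 CPM AL and 8.91, 14.3 and 17.5 CPM under CR. There too all CR samples were above all AL samples, with a log2 fold change of 1.82 (SE 0.33, padj = 0.00944).

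*Klf5*, the Krüppel-like factor that C/EBPβ and C/EBPδ induce on the way to *Pparg*, is at chr14:99298691-99315036 on the + strand and did not pass in either genotype. It had 21.4, 20.5, 24.3 and 23.4 CPM in BMAd-Pnpla2+/+ AL and 20.3, 15.9, 13.4 and 25.7 CPM in CR samples. The CR samples were more widely spread, 3 below and 1 above all AL samples, and the log2 fold change was -0.25 (SE 0.18, padj = 0.308). The BMAd-Pnpla2-/- samples had 26.2, 25.0 and 23.7 CPM AL and 27.9, 17.9 and 20.5 CPM under CR, with a log2 fold change of -0.18 (SE 0.21, padj = 0.618).

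*Zfp423*, a zinc-finger regulator of preadipocyte commitment, is at chr8:87661810-87959595 on the - strand. It had 19.6, 10.8, 11.8 and 8.12 CPM in BMAd-Pnpla2+/+ AL and 27.4, 55.4, 38.5 and 17.9 CPM in CR samples. CR replicate 4 lay below AL replicate 1, and the other 3 CR samples were above all AL samples. The log2 fold change was 1.47 (SE 0.34, padj = 0.0101). Levels in BMAd-Pnpla2-/- mice were 7.11, 13.1 and 10.7 CPM AL and 13.6, 18.9 and 17.5 CPM under CR. These groups did not overlap, with 13.6 against 13.1 CPM at the nearest, and the log2 fold change of 0.69 (SE 0.39, padj = 0.261) did not pass.

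The coactivators had the lowest levels per length in every group. *Ppargc1a*, at chr5:51454250-51567726 on the - strand, had 8 to 84 reads per sample, so counting error is large for it. BMAd-Pnpla2+/+ AL samples had 2.11, 0.43, 1.04 and 1.39 CPM and CR samples 2.79, 2.59, 3.79 and 1.55 CPM. The groups overlapped through AL replicate 1, and the log2 fold change was 1.10 (SE 0.37, padj = 0.0446). The 3 BMAd-Pnpla2-/- AL samples had 0.55, 0.53 and 0.75 CPM and the 3 CR samples 1.39, 1.71 and 1.99 CPM. Here the groups did not overlap and the log2 fold change was 1.46 (SE 0.48), with padj = 0.0605. DESeq2 called it there (padj = 0.0279), as did a fit of these 2 groups alone (padj = 0.0214).

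*Ppargc1b*, at chr18:61298136-61400431 on the - strand, had 7.15, 4.81, 6.05 and 4.42 CPM in BMAd-Pnpla2+/+ AL and 7.78, 14.9, 7.40 and 7.28 CPM in BMAd-Pnpla2+/+ CR samples. The groups did not overlap, yet 3 of the 4 CR samples were just above AL replicate 1. The log2 fold change was 0.74 (SE 0.24, padj = 0.0380), and without CR replicate 2 it was 0.42 (padj = 0.129). Levels in BMAd-Pnpla2-/- mice were 4.85, 6.14 and 5.04 CPM AL and 5.44, 5.86 and 7.21 CPM under CR, with a log2 fold change of 0.21 (SE 0.28, padj = 0.667). The calls of both coactivators in BMAd-Pnpla2+/+ mice were lost when only their own 2 groups were fitted, with padj = 0.101 for *Ppargc1a* and 0.0859 for *Ppargc1b*. Leaving out 1 library at a time, *Ppargc1a* was called in 2 of 14 fits, those without BMAd-Pnpla2+/+ AL replicate 1 or CR replicate 4, with padj up to 0.140, and *Ppargc1b* in 7 of 14, with padj up to 0.129. The *Ppargc1b* call was lost without BMAd-Pnpla2+/+ AL replicate 2, 3 or 4 or CR replicate 2, and also without BMAd-Pnpla2-/- AL replicate 1 or 3 or CR replicate 2.

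Per length, as RPKM (CPM over the exon length in kilobases), the early and core factors headed the order of levels in every group. In BMAd-Pnpla2+/+ AL samples *Cebpb* was at 80.6 ± 14.4 (SD, n = 4) and *Cebpa* at 64.6 ± 13.2 RPKM, neighbours within their spread. *Cebpd* followed at 42.8 ± 5.02 and *Pparg* at 12.9 ± 2.93 RPKM. *Klf5* was at 4.31 ± 0.342, *Zfp423* at 2.24 ± 0.882, *Klf15* at 1.88 ± 0.285, *Ppargc1b* at 1.41 ± 0.311 and *Ppargc1a* at 0.189 ± 0.106 RPKM, with *Zfp423*, *Klf15* and *Ppargc1b* close to each other relative to their spread. Under CR in the same genotype *Cebpa* came first at 148 ± 48.7 and *Cebpb* second at 77.4 ± 19.9 RPKM. *Cebpd* at 29.9 ± 3.69 and *Pparg* at 29.3 ± 7.74 RPKM were then not apart, and *Klf15* at 9.24 ± 3.24 stood before *Zfp423* at 6.21 ± 2.87 and *Klf5* at 3.62 ± 1.03 RPKM. The levels of *Cebpb* and *Cebpa* in this order leave out the reads that unstranded counting discards.

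Between genotypes, no member passed the test under either diet. Fed AL, 0 genes of the 17494 passed (0% of all), with 694 (3.97%) at an unadjusted p under 0.05, of which *Ppargc1a* was the only member (log2 fold change -1.02, SE 0.46, unadjusted p = 0.0428). DESeq2 called 19 genes there and no member. *Pparg* levels fed AL differed between genotypes by less than the spread of samples, at 38.1 ± 8.64 CPM (SD, n = 4) in BMAd-Pnpla2+/+ and 38.3 ± 12.9 CPM (n = 3) in BMAd-Pnpla2-/- mice.

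Under CR, 8 of the 9 members had lower fitted levels in BMAd-Pnpla2-/- than in BMAd-Pnpla2+/+ mice, with *Klf5* the exception, against 51.3% of all genes. An unadjusted p under 0.05 was found for 6, all lower, where 23.2% of all genes had one in either direction and 11.4% were lower. None passed after adjustment, and 0.00572% of all genes were called higher and 0.0114% lower. *Cebpa* came nearest, at 196 ± 36.8 CPM (n = 3) against 390 ± 128 CPM (n = 4), a log2 fold change of -0.99 (SE 0.26, padj = 0.0755). *Zfp423* differed by -1.06 (SE 0.37, padj = 0.122), *Klf15* by -0.93 (SE 0.29, padj = 0.102), *Pparg* by -0.61 (SE 0.27, padj = 0.202), *Ppargc1b* by -0.60 (SE 0.26, padj = 0.192) and *Cebpb* by -0.57 (SE 0.18, padj = 0.103). Overlap between groups is described for the members only, here and above, without the share of all genes that did not overlap. The 3 BMAd-Pnpla2-/- samples were all below the 4 BMAd-Pnpla2+/+ samples for *Cebpb* and *Ppargc1b*, while for *Cebpa*, *Klf15*, *Zfp423* and *Pparg* they overlapped through BMAd-Pnpla2+/+ CR replicate 4. Without that library *Cebpa*, *Cebpb*, *Klf15* and *Zfp423* passed as lower in BMAd-Pnpla2-/- mice (padj = 0.0167, 0.0273, 0.0178 and 0.0321), where 5.45% of all genes were called lower and the calls over all genes went from 3 to 2092. DESeq2 called the same 4 with all libraries, against 5.42% of all genes called lower. On the deposited matrix, in which the BMAd-Pnpla2-/- CR columns hold unstranded and the other columns reverse-strand counts, *Cebpb* differed by -1.17 (padj = 0.000499) and *Cebpa* by -1.23 (padj = 0.00615), where 7.2% of all genes were called lower. They are the 2 members whose unstranded counts fall furthest below their reverse-strand counts. The 8 adipocyte markers (*Adipoq*, *Plin1*, *Cidec*, *Fabp4*, *Lep*, *Retn*, *Cfd* and *Lipe*) had a median log2 fold change of -1.04 in the same comparison and -1.14 fed AL, with 0 of 8 called in either, and their part in the members' differences was not tested.

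The difference of the CR responses, tested as an interaction, passed for no member and for 0% of all genes, with 1824 genes (10.4%) and 0 members at an unadjusted p under 0.05. DESeq2 called 60 genes and no member. The response of *Cebpa* was smaller in BMAd-Pnpla2-/- mice by a log2 difference of -0.68 (SE 0.36, padj = 0.531), that of *Zfp423* by -0.77 (SE 0.51, padj = 0.598) and that of *Pparg* by -0.62 (SE 0.38, padj = 0.578). For *Cebpd* it was -0.09 (SE 0.16, padj = 0.864) and for *Klf15* -0.48 (SE 0.42, padj = 0.684). The rises of *Pparg*, *Cebpa*, *Zfp423*, *Ppargc1a* and *Ppargc1b* that passed in BMAd-Pnpla2+/+ mice only were therefore not shown to differ between genotypes.

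**Figure D2:**
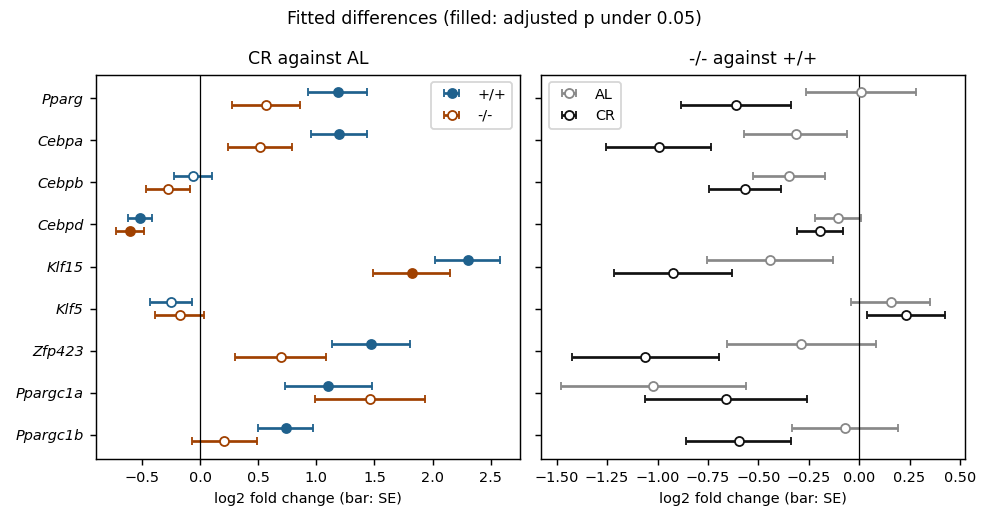
Log2 fold changes of the 9 members (x axes; bars are standard errors) for CR against AL in each genotype at left and for BMAd-Pnpla2-/- against BMAd-Pnpla2+/+ under each diet at right, with filled points where padj is under 0.05. At left 7 points are filled for BMAd-Pnpla2+/+ and 2 for BMAd-Pnpla2-/- mice, and at right 0 are filled.

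The genes that PPARγ and C/EBPα are known to activate in adipocytes were then compared. Of 30 listed, 27 were tested. The BMAd-Pnpla2+/+ mice had 24 higher and 0 lower, where 15% of all genes were higher and 10.9% lower. The median log2 fold change was 1.74 against 0.0029 over all genes. *Retn*, the adipokine resistin, rose by 3.54 (SE 0.38). *Cidea*, a lipid droplet protein, rose by 3.46 (SE 0.71) from a low level of 0.174 CPM to 1.99 CPM, so counting error is large for it. At the small end *Agpat2*, an enzyme of triglyceride synthesis, rose by 0.67 (SE 0.13) and *Mgll*, which cleaves monoglycerides, by 0.85 (SE 0.15). With CR in BMAd-Pnpla2-/- mice 15 were higher and 1, the fatty acid binding protein *Fabp5*, was lower, with a median of 1.47. The shares of all genes were 6.01% higher and 5.57% lower. There *Retn* rose by 2.93 (padj = 0.007), while *Agpat2* had a log2 fold change of -0.11 (padj = 0.689) and *Mgll* of 0.18 (padj = 0.504).

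Of 29 other positive regulators of adipogenesis tested, CR left 13 higher and 1 lower in BMAd-Pnpla2+/+ mice (median log2 fold change 0.30). BMAd-Pnpla2-/- mice had 4 higher and 1 lower (median 0.10). Within the whole tested set, CR raised 15% and reduced 10.9% of genes in BMAd-Pnpla2+/+ samples. The matching shares for BMAd-Pnpla2-/- samples were 6.01% up and 5.57% down. *Mlxipl*, which encodes the carbohydrate-response factor ChREBP, went from 4.23 ± 2.14 to 21.8 ± 7.66 CPM in BMAd-Pnpla2+/+ mice (log2 fold change 2.36, SE 0.45, padj = 0.00481) and rose in BMAd-Pnpla2-/- mice too (2.06, padj = 0.0296). *Ppara*, the receptor of fatty acid oxidation, rose by 1.99 (SE 0.38, padj = 0.00416) from a low level of 0.330 CPM. *Ncoa1*, a coactivator of nuclear receptors, rose by 0.29 and *Creb1*, the cAMP-response factor, fell by 0.30 in BMAd-Pnpla2+/+ mice.

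Of 20 negative regulators and corepressors tested, 0 were called lower with CR in either genotype. The number called higher was 5 for BMAd-Pnpla2+/+ (median log2 fold change 0.13) and 2 for BMAd-Pnpla2-/- mice (median 0.02). The shares of all tested genes called higher were 15% and 6.01%, and those called lower 10.9% and 5.57%. *Nr2f2*, the orphan receptor COUP-TFII, rose by 1.37 (SE 0.28, padj = 0.00577) and *Wwtr1*, the Hippo coactivator TAZ that restrains PPARγ, by 1.10 (SE 0.25, padj = 0.00896) in BMAd-Pnpla2+/+ mice. *Zfp521*, known as an antagonist of *Zfp423*'s branch, rose by 0.84 and the corepressor *Nrip1* by 0.69.

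Mitochondrial targets and partners of the PGC-1 coactivators were mostly not called, which also held for the tested genes as a whole. Of 19 tested, BMAd-Pnpla2+/+ mice had 2 higher and 1 lower with CR, with a median log2 fold change of -0.13. BMAd-Pnpla2-/- mice had 2 higher and 2 lower, with a median of -0.04. *Acadm*, the medium-chain acyl-CoA dehydrogenase of β-oxidation, rose by 0.56 (SE 0.11, padj = 0.00522) and *Mfn2*, a protein of mitochondrial fusion, by 0.31, while *Nrf1*, a partner of PGC-1α at nuclear genes of the respiratory chain, fell by 0.45 (SE 0.13, padj = 0.0260) in BMAd-Pnpla2+/+ mice. These are genes of broad expression.

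**Figure D3:**
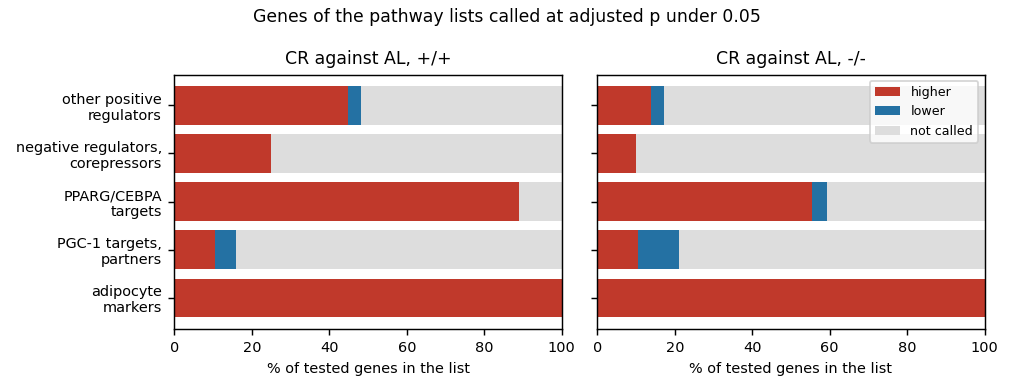
Percent of the tested genes of 5 lists (x axes) that were called higher, called lower or not called at padj under 0.05 with CR in BMAd-Pnpla2+/+ (left) and BMAd-Pnpla2-/- mice (right). Of 27 tested targets of PPARγ and C/EBPα 24 were higher at left and 15 at right, and all 8 adipocyte markers were higher in both.

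Adipocyte markers rose with CR in both genotypes, whereas *Klf15* was the only member called higher in BMAd-Pnpla2-/- mice. All 8 (*Adipoq*, *Plin1*, *Cidec*, *Fabp4*, *Lep*, *Retn*, *Cfd* and *Lipe*), every one of which is also on the target list, were detected in each group and rose with CR in both genotypes. Their summed level was 664 to 1708 CPM in BMAd-Pnpla2+/+ AL, 1895 to 4687 CPM in BMAd-Pnpla2+/+ CR, 301 to 684 CPM in BMAd-Pnpla2-/- AL and 1208 to 1964 CPM in BMAd-Pnpla2-/- CR samples. In bulk RNA, more cells of a type and more RNA of a gene per cell cannot be told apart. The mean log2 CPM of the 8 markers rose by 2.29 with CR in BMAd-Pnpla2+/+ and by 2.40 in BMAd-Pnpla2-/- mice.

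Against this marker mean, the averages of all 9 members were lower under CR than AL in both genotypes. Because the marker mean itself rose with CR, a gene unchanged by CR would be lower against it too. The permutation tests below therefore do not separate a fall of a member from the rise of the markers. The log2 difference between a member and the marker mean changed with CR in BMAd-Pnpla2+/+ mice by -1.13 for *Pparg*, -1.15 for *Cebpa*, -0.88 for *Zfp423*, -1.13 for *Ppargc1a* and -1.61 for *Ppargc1b*. The change was -2.81 for *Cebpd*, -2.58 for *Klf5* and -2.37 for *Cebpb*. Each had an exact two-sided permutation p = 0.0286, the smallest that 4 samples against 4 allow. The adjusted permutation p was 0.0643 over the 18 tests. Group sizes alone keep every test of this family from passing after adjustment, so the adjusted values decide nothing about the members. For *Klf15* the change was the smallest, -0.09 (exact permutation p = 0.686, adjusted p = 0.686), and it turned to 0.27 without *Lep*, *Retn* and *Cfd* in the marker mean and to 0.08 without AL replicate 2. The relative changes in BMAd-Pnpla2-/- mice ran from -0.64 for *Klf15* to -3.01 for *Cebpd*, each with an exact permutation p = 0.1, the smallest possible for 3 against 3.

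**Figure D4:**
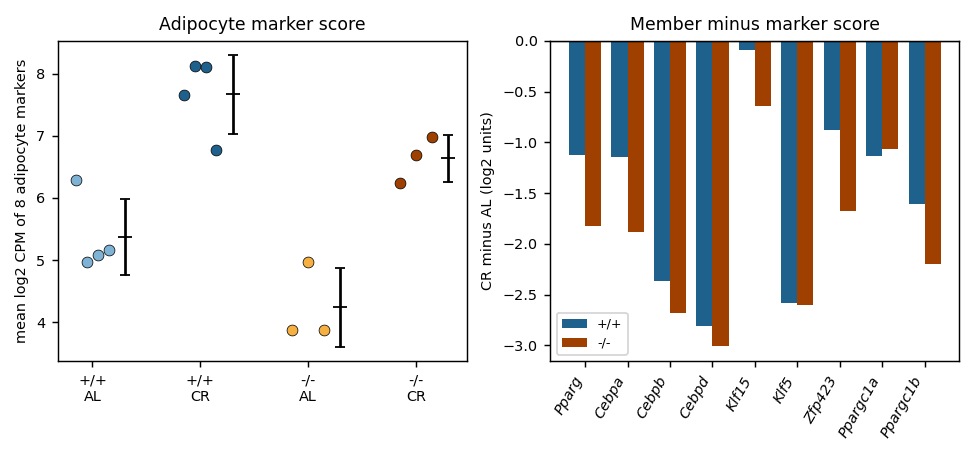
Left, the mean log2 CPM of 8 adipocyte markers in each sample with group mean and SD. Right, for each member, the CR minus AL difference of its log2 CPM after the marker mean was subtracted, for both genotypes. Every bar lies below 0, as that of a gene unchanged by CR would. *Klf15* lies nearest to 0, at -0.09 and -0.64.

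Markers of other non-hematopoietic cells rose as well in BMAd-Pnpla2+/+ mice, where 5 of 10 markers of CXCL12-abundant reticular stromal cells, 4 of 8 of osteoblasts and 5 of 6 of endothelium were higher with CR and 0 were lower. The numbers higher in BMAd-Pnpla2-/- mice were 2, 1 and 0. Median log2 fold changes of stromal, osteoblast and endothelial markers were 0.68, 0.86 and 0.83 in BMAd-Pnpla2+/+ and 0.70, 0.40 and 0.50 in BMAd-Pnpla2-/- mice. Of all tested genes 15% were higher and 10.9% lower with CR in BMAd-Pnpla2+/+ mice, and 6.01% and 5.57% in BMAd-Pnpla2-/- mice. Summed osteoblast markers ran from 511 to 1134 CPM in BMAd-Pnpla2+/+ AL and from 735 to 3557 CPM in CR samples, stromal markers from 5769 to 7244 and from 7240 to 12533 CPM, and endothelial markers from 473 to 684 and from 581 to 1162 CPM. Of monocyte and macrophage markers 3 of 10 rose and 2 fell in BMAd-Pnpla2+/+ mice, and of pro-B and pre-B cell markers 5 of 8 were lower in both genotypes. No erythroid marker of 7 tested and no skeletal muscle marker of 5 tested was called with CR in either genotype. Muscle markers summed to at most 28.6 CPM except in the BMAd-Pnpla2-/- CR group, where they ran from 11.6 to 125 CPM. What part these cells have in the members' levels was not tested.

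Genes whose log2 CPM over the 14 samples followed each member most closely were sought among the 12916 other tested genes whose mean count was 50 or more. These correlations describe samples that share groups, diets and composition. *Rgma* (Pearson r = 0.98), *Rras* and *Fam160a1* were nearest to *Pparg*, *Col4a1* (r = 0.98), *Phldb1* and *Zfp503* to *Cebpa*, and *Col4a2* (r = 0.99), *Kank2* and *Col6a3* to *Zfp423*, the first of each of these last 2 being a chain of collagen IV. *Apcdd1* (r = 0.99), *Chpt1* and *Slc27a1*, a fatty acid transporter, were nearest to *Klf15*. *Cebpd* was followed by *Hcls1* (r = 0.98), a signalling protein of hematopoietic cells, *Dbnl* and *Zfp414*, and *Klf5* by *Ngp* (r = 0.93), a neutrophil granule protein, *Ripor2* and *Rlf*. *Cebpb* was nearest to *Lonp1* (r = 0.92), *Copg1* and *Keap1*. *Kif16b* (r = 0.94), *Rapgef2* and *Kat6b* were nearest to *Ppargc1b*.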

How the data were processed

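RNAseq of 14 pooled marrow samples was analysed from gene counts. The authors aligned strand-specific read pairs (DNBSEQ) to mm10 with STAR after FastQC 0.11.9, used DESeq2 for their own tests, and deposited raw counts per gene and sample in 3 forms (ignoring strand, first strand, reverse strand), with a matrix of 23441 genes that holds reverse-strand counts for 11 samples and unstranded counts for the 3 BMAd-Pnpla2-/- CR samples. The counting annotation is not given in the sources used here; coordinates and exon lengths are from GENCODE M21 (GRCm38).

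Here the unstranded counts of the matrix genes were filtered with filterByExpr, scaled by TMM and fitted with edgeR 4.0.16 (quasi-likelihood, robust, 1 mean per group, R 4.3.3), with 5 comparisons and two-sided p-values adjusted by Benjamini and Hochberg over 17494 genes. The standard error is the log2 fold change over the root of F. CPM uses TMM library sizes; log2 CPM has a prior count of 2. DESeq2 1.42.0, other scalings and filters, the deposited matrix, the replicate block and leaving out each library were alternatives. Permutation tests used scipy 1.17.1.

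The members and lists were chosen with earlier results of these data known. Genes named are the members, *Pnpla2*, the 3 most correlated genes of each member (those of *Ppargc1a* are not reported here) and the 2 largest and 2 smallest fold changes among the called genes of a list; other marker genes are named where they bear on a member, and *Fabp5* was named after its value was seen. In simulated counts for CR against AL in BMAd-Pnpla2+/+ mice (17494 genes), 118 of 198 tested genes changed 2-fold (59.6%) were recovered, with 0 false calls. Nothing states that samples of a group came from separate litters or batches; the 18 within-group pairs differed beyond counting noise (chi-square per degree of freedom of at least 17.7).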

Additional observations from a re-analysis of the deposited data

Results flagged for a closer look

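Among the 9 members in the 2 groups of 4 samples, 1 of 18 sets of values had a sample far from the others. *Ppargc1b* was at 14.9 CPM in BMAd-Pnpla2+/+ CR replicate 2, and its gap to the next sample was 0.933 of the range of that group, above Dixon's critical value. Chance alone marks about 1 in 20 such groups. The log2 fold change of *Ppargc1b* with CR was 0.74 with this library and 0.42 without it.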

How the results depend on the processing

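With CR in BMAd-Pnpla2+/+ mice, the calls of *Pparg*, *Cebpa*, *Cebpd*, *Klf15* and *Zfp423* held under each of the 10 alternatives and the 14 fits without 1 library. Those of *Ppargc1a* and *Ppargc1b* did not, and 5 to 7 members were called when 1 library was left out. Calls over all genes were 4543 with all libraries and 2200 to 5959 without 1. In BMAd-Pnpla2-/- mice 2 members were called, 4 on the deposited matrix, 4 when only those groups were fitted, and 1 to 3 without 1 library. Calls over all genes there were 2025, 3898 on the deposited matrix, 2657 with those groups alone and 248 to 2402 without 1 library. On the deposited matrix the AL and CR columns of this genotype hold different forms of counts (reverse-strand and unstranded). Between genotypes under CR 0 members were called, 4 by DESeq2, 2 on the deposited matrix, and 0 to 4 without 1 library (4 without BMAd-Pnpla2+/+ CR replicate 4). Over all genes this comparison gave 3 calls, 1598 by DESeq2, 2451 on the deposited matrix and 0 to 2092 without 1 library, the most without BMAd-Pnpla2+/+ CR replicate 4. Samples with the same replicate number shared no more than it (correlations of their deviations from -0.374 to 0.326, 7 of 19 pairs over 0.1, and 5 of 14 samples closest to their own number). With the replicate block, 5 members were called for BMAd-Pnpla2+/+ mice (*Ppargc1a* at padj = 0.0593 and *Ppargc1b* at 0.0505 were not), 2 for BMAd-Pnpla2-/- mice and 0 between genotypes or for the difference of responses. Against the adipocyte marker mean, 9 members were lower with CR in BMAd-Pnpla2+/+ mice, 9 with a prior count of 0.5, 8 without *Lep*, *Retn* and *Cfd*, and 8 or 9 without 1 library. A gene unchanged by CR would be lower against it too.

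Signs turned only for differences that did not pass. The *Cebpb* response in BMAd-Pnpla2+/+ mice ranged from -0.267 to 0.0582 without 1 library. The AL difference of *Pparg* between genotypes was 0.01, -0.0136 with total counts, -0.150 with the replicate block and -0.298 to 0.178 without 1 library. The AL differences of *Zfp423* (-0.496 to 0.0127) and *Ppargc1b* (-0.181 to 0.0687) and the differences of the responses of *Klf5* (-0.130 to 0.263) and *Ppargc1a* (-0.0167 to 0.639) crossed 0 in the same way. The cause was not tested. *Ppargc1a* had 8 to 84 reads a sample, the fewest of the 9 members.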
